A study of Homo sapiens with 8 samples.

Results

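SR splicing factors were examined probe set by probe set in the human lung carcinoma line H460, in TRAIL-sensitive cells and in cells that had become resistant. TRAIL, a member of the tumour necrosis factor family, kills cells through death receptors. The genes were SRSF1, SRSF2, SRSF3, SRSF4, SRSF5, SRSF6, SRSF7, SRSF10, SRSF11 and TRA2B, and every probe set that the platform annotation gave to one of them alone was taken. This gave 41 of 54613 probe sets, for 9 of the 10 genes. The 3 probe sets of SRSF2 also list the microRNA gene MIR636, so they were kept apart and are given separately. The genes were picked with the contrast of resistant and sensitive cells already known, and SRSF1 because its probe sets moved in opposite directions. Changes of these probe sets are therefore given as a description, without p-values.

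Total RNA of H460 cells was hybridised to 8 Affymetrix arrays. In 4 of them (H460S) the RNA came from TRAIL-sensitive control cells, and in the other 4 (H460R) from cells with resistance acquired during 6 months of daily TRAIL at subtoxic concentrations. The labels give no clone, no time since the last TRAIL dose and no separate cultures, so resistance, long exposure and time in culture cannot be told apart. The standard errors and p-values therefore describe only how far these arrays differ from each other, which may be a technical spread. Levels are log2(signal + 1), and a change is the mean of the resistant arrays minus that of the sensitive arrays, with n = 4 per group. A probe set was called when limma's Benjamini-Hochberg adjusted p over all 54613 probe sets was below 0.05.

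SR proteins bind exonic and intronic enhancer sequences through RNA recognition motifs and recruit the splicing machinery through a domain rich in arginine and serine. Phosphorylation of that domain by the SRPK and CLK kinases governs where the proteins reside in the cell and whether they act. Many SR genes also control their own output: the protein promotes inclusion of a poison exon, or another splicing event, that turns its own transcript into a target of nonsense-mediated decay. A gene can thus give a productive mRNA and several other transcripts, and probe sets designed from different sequence records need not detect the same ones.

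The arrays held the keratin transcripts of an epithelial line. KRT8, KRT18 and KRT19 had log2 levels of at least 11.2 on every array, whereas EPCAM and CDH1 stayed at or below 4.58. Among leukocyte markers PTPRC did not exceed 4.40, while CD14 read 6.24 to 6.68 in sensitive and 6.54 to 6.94 in resistant cells, above the level of the median probe set (5.01). Of 5 fibroblast markers 3 lay above the median probe set, with COL3A1 between 9.87 and 10.07 on all arrays, and the summed signal of the list was 1295 to 1442 in sensitive and 1154 to 1264 in resistant cells. The summed signal of the 5 epithelial markers was 16942 to 19731 in sensitive and 13312 to 16023 in resistant cells. Of these, KRT19 read 12.41 to 12.71 in sensitive and 11.20 to 11.42 in resistant cells, while the ranges of EPCAM, KRT8, KRT18 and CDH1 overlapped. Leukocyte sums (4 of 5 markers measured) were 107 to 141 and 127 to 153, and endothelial sums (4 markers) 85 to 113 and 60 to 116. The 3′ minus 5′ difference of the ACTB control probe sets, a measure of RNA integrity and labelling, was 0.23 ± 0.002 (SD) in sensitive and 0.11 ± 0.015 in resistant arrays. This difference reached the smallest p that 4 against 4 arrays allow (exact two-sided permutation test, p = 0.0286), while that of GAPDH did not differ beyond its spread (p = 0.686). The part of these shifts in the changes below was not tested.

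Promoter sequence was compared because most of the genes gave higher signals together, and SRSF1, SRSF3 and TRA2B are shown as the genes with the most probe sets higher at least 2-fold (SRSF1 and TRA2B) and with the most recognisable core promoter (SRSF3). The 250 bases before the start of each gene are printed 5′ to 3′ on the gene's strand, from RefSeq on build GRCh38.p14: SRSF1 at chr17:58007247-58007496 (minus strand), SRSF3 at chr6:36594112-36594361 (plus strand) and TRA2B at chr3:185938015-185938264 (minus strand). Capitals mark matches to the motifs searched.
SRSF1: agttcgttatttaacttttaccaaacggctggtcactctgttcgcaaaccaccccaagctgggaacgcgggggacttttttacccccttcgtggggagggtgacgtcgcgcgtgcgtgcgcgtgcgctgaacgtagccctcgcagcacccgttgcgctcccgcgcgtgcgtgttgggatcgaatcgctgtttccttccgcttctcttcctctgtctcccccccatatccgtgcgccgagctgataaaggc
SRSF3: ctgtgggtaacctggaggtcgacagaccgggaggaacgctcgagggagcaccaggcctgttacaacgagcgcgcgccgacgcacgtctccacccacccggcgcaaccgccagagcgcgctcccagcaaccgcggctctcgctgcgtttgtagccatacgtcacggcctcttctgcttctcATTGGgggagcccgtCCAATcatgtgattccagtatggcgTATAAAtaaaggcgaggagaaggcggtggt
TRA2B: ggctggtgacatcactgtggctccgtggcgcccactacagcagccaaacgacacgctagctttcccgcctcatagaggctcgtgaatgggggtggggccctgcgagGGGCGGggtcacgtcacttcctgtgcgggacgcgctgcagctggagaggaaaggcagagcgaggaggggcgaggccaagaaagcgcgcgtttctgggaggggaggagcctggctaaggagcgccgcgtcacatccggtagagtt
Such windows were found for 9 of the 10 genes. They held a median of 23 CpG dinucleotides, against 11 over 27305 promoters of the same length, with a median GC content of 61.6% against 58.0%. The motifs were searched on both strands, and no motif contains another. A CCAAT box (CCAAT) was found in SRSF3 alone, against 33.0% of all promoters, and the letters of a TATA box (TATAAA) in SRSF3 and SRSF11, against 11.1%. The ETS letters CCGGAAG occurred in SRSF4 and SRSF5 (8.82% of all promoters) and a GC box (GGGCGG) in SRSF4, SRSF6, SRSF7 and TRA2B (42.3%). The MYC and MAX E-box CACGTG (6.49% of all promoters), the cyclic AMP response element TGACGTCA (1.77%) and the E2F letters TTTGGCGC (0.553%) were in 0 of the 9 windows.

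Most SR factor probe sets with a mean level of at least 9 gave higher signals in resistant cells. Of the 41 probe sets 21 were called higher, against a background of 9.13% of all probe sets, and 2 were called lower, against 10.4%. The change was at least 2-fold for 6 of those called higher (background 2.56%) and 1 of those called lower (background 3.76%). On 22 probe sets all 4 resistant arrays lay above all 4 sensitive arrays (background 12.5%), and on 3 they all lay below (background 13.9%). The changes ranged from -1.09 to 1.39 with a median of 0.39, where the median over all probe sets was -0.04. At a mean level of at least 9, 17 of 19 probe sets were called higher and 0 lower, beside 24.5% and 20.9% of the 6819 probe sets in the same range on the array. No p-value is drawn from these counts, since the genes were chosen on this contrast.

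**Figure D1:**
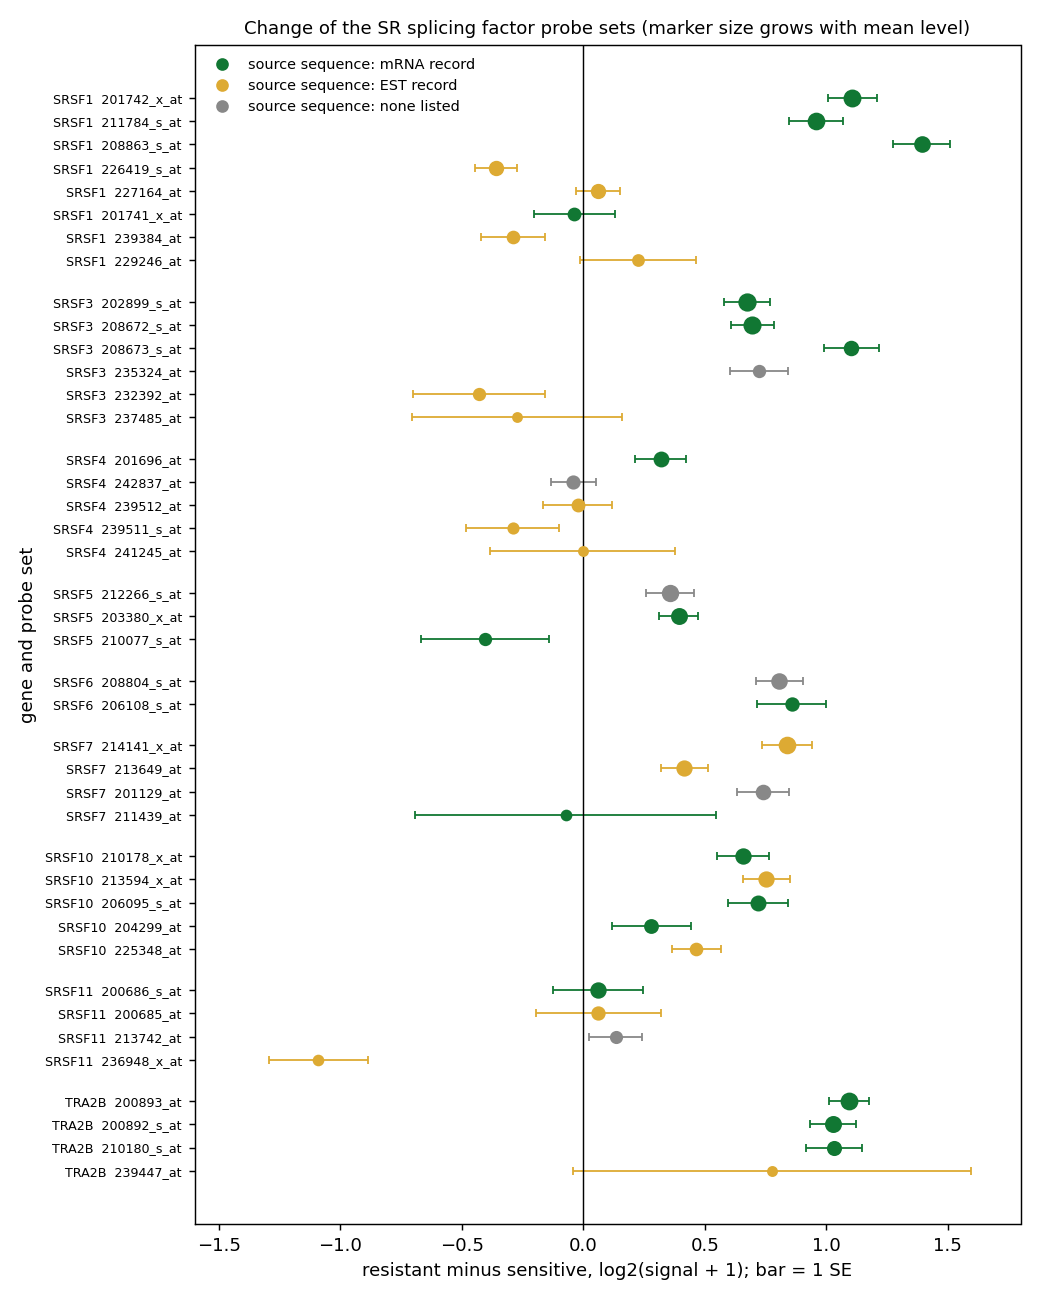
Change of each of the 41 probe sets, as the resistant mean minus the sensitive mean of log2(signal + 1) (x axis), grouped by gene and ordered by mean level within a gene (y axis). Points are limma estimates and bars 1 SE. Colour gives the kind of sequence record behind the probe set. All 19 probe sets with a mean level of at least 9 lie to the right of 0. Taken at all levels, the probe sets of SRSF6, SRSF10 and TRA2B lie to the right, and those of each other gene on both sides.

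SRSF1, the founding SR protein and a known oncogene product, was measured by 8 probe sets, of which 3 were called higher, 1 lower and 4 neither. Probe set 201742_x_at, built on the RefSeq mRNA, read 11.35, 11.18, 11.23 and 11.31 on the sensitive arrays and 12.32, 12.34, 12.29 and 12.56 on the resistant arrays. The change was 1.11 ± 0.10 (SE), or 2.16-fold, and the groups did not overlap. Probe set 211784_s_at read 10.86, 11.17, 11.12 and 11.17 in sensitive and 11.91, 12.01, 12.13 and 12.11 in resistant cells, a change of 0.96 ± 0.11. Probe set 208863_s_at showed the largest rise of all 41, from 9.83, 9.75, 9.68 and 9.69 to 11.19, 10.97, 11.00 and 11.36, a change of 1.39 ± 0.12 or 2.63-fold. All 3 come from mRNA records, and on each of them every resistant array exceeded every sensitive array.

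The other 5 SRSF1 probe sets did not share this rise. Probe set 226419_s_at, designed from an expressed sequence tag (EST, a single-pass read of a cDNA clone), read 9.27, 9.14, 9.10 and 9.17 in sensitive cells and 8.77, 8.85, 8.80 and 8.82 in resistant cells. It was lower in resistant cells without overlap, by a small amount: the change was -0.36 ± 0.09, or 1.28-fold lower. That call was the weak side of the opposition. It was kept in 2 of the 8 fits that left out 1 array (without H460S array 3 and without H460R array 4), where changes ran from -0.38 to -0.33. It was lost after median centring of the arrays (-0.29), with replicate numbers as a block, and without both H460S array 1 and H460R array 4.

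Probe set 239384_at, also from an EST, gave 7.18, 7.27, 7.37 and 7.23 in sensitive and 7.12, 6.64, 7.08 and 7.04 in resistant cells. The groups did not overlap, but the change of -0.29 ± 0.13 was not called. Probe set 227164_at read 8.77 to 8.93 in sensitive and 8.83 to 8.96 in resistant cells, a change of 0.06 ± 0.09. Probe set 201741_x_at changed by -0.04 ± 0.17, although it too comes from an mRNA record, and 229246_at by 0.23 ± 0.24. Both overlapped between the groups.

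**Figure D2:**
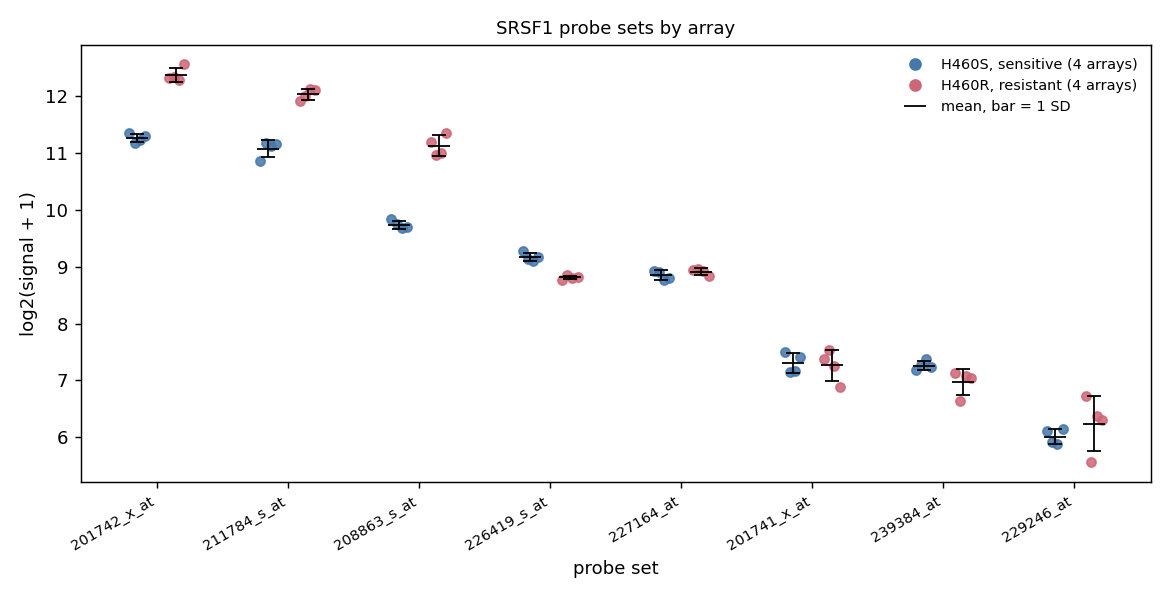
Level of each SRSF1 probe set on each array, as log2(signal + 1) (y axis), for 4 sensitive and 4 resistant arrays, with the mean and 1 SD as black bars. The 3 leftmost probe sets are higher on all resistant arrays, 226419_s_at and 239384_at are lower on all of them, and the other 3 overlap.

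Opposite calls within a gene were counted over the whole array. Among 10523 genes with at least 2 probe sets, 73 had probe sets called in both directions (background 0.694%), and these were 3.65% of the 2000 genes with at least 2 called probe sets. Of the 132 genes with at least 8 probe sets, 10 had them (7.58%). The count of 73 depended on the fit: it was 166 with dim probe sets left out, 145 with a trended robust prior and 10 with replicate numbers as a block. It was 29 to 72 when 1 array was left out, and 46 or fewer without any array other than H460R array 4. The SRSF1 probe sets spanned a range of change of 1.75, and 22 of the 63 genes with exactly 8 probe sets spanned more. Ranges of the other genes were 0.05 for SRSF6, 0.32 for TRA2B, 0.47 for SRSF10, 0.61 for SRSF4, 0.80 for SRSF5, 0.91 for SRSF7, 1.22 for SRSF11 and 1.53 for SRSF3. SRSF3 was wider than most genes with 6 probe sets, whose median range was 1.08.

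TRA2B, an SR-like activator with an RS domain at each end of the protein, changed by nearly the same amount on its 3 brightest probe sets. Probe set 200893_at read 11.11, 11.21, 11.15 and 11.16 in sensitive and 12.25, 12.31, 12.21 and 12.24 in resistant cells, a change of 1.10 ± 0.08. The changes of 200892_s_at and 210180_s_at were 1.03 ± 0.10 and 1.03 ± 0.12. On all 3 the resistant arrays lay wholly above the sensitive ones. The EST-based probe set 239447_at scattered from 1.60 to 5.64 among the sensitive arrays alone, and its change of 0.78 ± 0.82 was not called.

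The 3 probe sets that list both MIR636 and SRSF2 behaved alike, although the count above leaves them out. SRSF2 encodes an SR protein known for binding exonic enhancers of varied sequence. Probe set 200754_x_at read 11.61, 11.50, 11.39 and 11.45 in sensitive and 12.64, 12.58, 12.64 and 12.60 in resistant cells, a change of 1.13 ± 0.09. The other probe sets, 214882_s_at and 200753_x_at, changed by 1.29 ± 0.10 and 1.31 ± 0.12. All 3 were called higher without overlap of the groups.

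SRSF3 and SRSF7, short SR proteins that also act as adaptors of mRNA export, were higher on most of their probe sets. For SRSF3, probe set 202899_s_at read 11.92, 11.86, 11.96 and 11.92 in sensitive and 12.52, 12.56, 12.51 and 12.76 in resistant cells, a change of 0.67 ± 0.10. Probe set 208672_s_at changed by 0.70 ± 0.09 and 208673_s_at, from 8.53 to 8.71 up to 9.48 to 9.85, by 1.10 ± 0.11. Probe set 235324_at changed by 0.72 ± 0.12. The EST-based sets 232392_at (-0.43 ± 0.27) and 237485_at (-0.27 ± 0.43) overlapped between the groups and were not called.

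For SRSF7, probe set 214141_x_at read 11.18, 11.02, 11.01 and 11.13 in sensitive and 11.91, 11.86, 11.84 and 12.09 in resistant cells, a change of 0.84 ± 0.10. Probe sets 201129_at and 213649_at changed by 0.74 ± 0.11 and 0.42 ± 0.10. All 3 were higher on every resistant array. The call of 213649_at was lost without H460S array 2, 3 or 4 or H460R array 2, with changes of 0.37 to 0.45 over the 8 fits that left out an array. The dim probe set 211439_at varied from 3.34 to 5.88 among the resistant arrays and changed by -0.07 ± 0.62.

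SRSF4, SRSF5 and SRSF6, which like SRSF1 carry a second, atypical RNA recognition motif, gave changes of different size. SRSF6 was higher on both of its probe sets: 208804_s_at read 9.90, 10.02, 9.80 and 10.02 in sensitive and 10.82, 10.75, 10.78 and 10.63 in resistant cells. Its change was 0.81 ± 0.10, and that of 206108_s_at was 0.86 ± 0.14. SRSF5 was called higher on 2 of its 3 probe sets by smaller amounts, 0.39 ± 0.08 for 203380_x_at and 0.36 ± 0.10 for 212266_s_at, while 210077_s_at changed by -0.40 ± 0.26. Groups did not overlap on the first 2, but the call of 212266_s_at was lost in each of the 8 fits without 1 array (0.32 to 0.40). With replicate numbers as a block neither 203380_x_at nor 212266_s_at was called.

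None of the 5 SRSF4 probe sets was called. The mRNA-based 201696_at read 9.45, 9.49, 9.42 and 9.27 in sensitive and 9.69, 9.77, 9.87 and 9.57 in resistant cells, without overlap and with a change of 0.32 ± 0.10. It narrowly missed the threshold and passed it with a pseudocount of 16, among other alternatives. The remaining 4 changed by -0.29 to -0.002 and overlapped.

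SRSF10, an SR protein that represses splicing when dephosphorylated, as in heat shock, was higher on 4 of 5 probe sets. Probe set 213594_x_at read 9.77, 9.67, 9.69 and 9.57 in sensitive and 10.37, 10.46, 10.33 and 10.55 in resistant cells, a change of 0.75 ± 0.10. Probe sets 206095_s_at, 210178_x_at and 225348_at changed by 0.72 ± 0.12, 0.66 ± 0.11 and 0.47 ± 0.10. All 4 separated the groups, but 206095_s_at and 225348_at were not called with replicate numbers as a block. The fifth, 204299_at, changed by 0.28 ± 0.16 with overlap.

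SRSF11, an SR-related protein, showed no such rise. Its probe set 200686_s_at read 9.82, 10.23, 10.28 and 10.10 in sensitive and 10.30, 10.37, 10.31 and 9.70 in resistant cells, a change of 0.06 ± 0.19. Probe sets 200685_at and 213742_at changed by 0.06 ± 0.26 and 0.13 ± 0.11. The EST-based 236948_x_at was called lower, from 5.20, 5.48, 5.24 and 5.71 to 4.44, 3.87, 4.68 and 4.28, a change of -1.09 ± 0.20. Its levels lay near that of the median probe set (5.01), where these signals are noisy, and with a pseudocount of 16 the change was -0.71. The call was lost with replicate numbers as a block.

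Calls were also counted by the kind of sequence record behind a probe set, read from the form of its accession after the values were seen. Of 19 probe sets from mRNA records 13 were called higher and 0 lower, beside 10.8% and 11.1% of the 22281 named probe sets of that kind. Of 16 from EST records 4 were called higher and 2 lower, beside 9.87% and 12.6% of 13068. Here the share called lower was close to its background. Of the 6 with no record listed, 4 were called higher and 0 lower, beside 10.0% and 11.0% of 5742. Median changes were 0.70, 0.03 and 0.54. Brightness moved with this split as well, with median mean levels of 10.14, 7.10 and 8.48, and its part was not tested. The annotation does not place probe sets on exons, so which transcript each one detects was not analysed here.

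**Figure D3:**
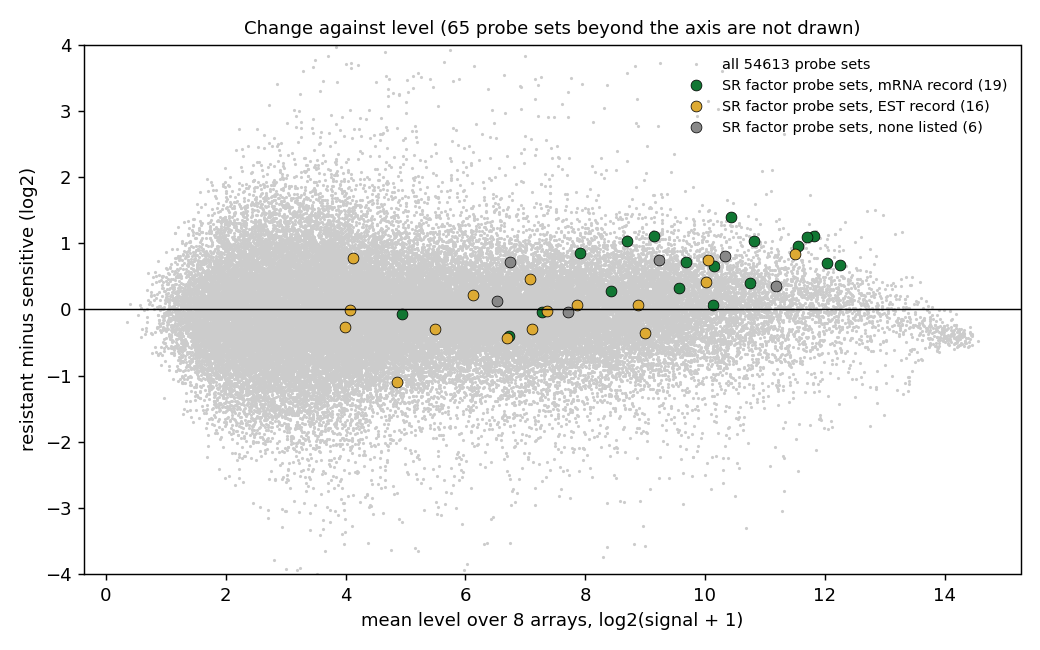
Change (resistant minus sensitive, log2, y axis) against the mean level over 8 arrays (x axis) for 54613 probe sets in grey and the 41 SR factor probe sets in colour by sequence record; 65 probe sets beyond the axis are not drawn. At a level of at least 9 all 19 SR factor probe sets lie above 0, and below that level they lie on both sides.

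The suffix of a probe set's name gave a further split. Probe sets ending in _s_at or _x_at, which can detect several transcripts or related sequences, made up 15 and 7 of the 41. Of the 15 _s_at sets 11 were called higher and 1 lower, beside 14.3% in each direction of all 11292 such sets on the array. Of the 7 _x_at sets 5 were called higher and 1 lower, beside 8.65% and 8.99% of 4207. Of the 19 plain _at sets 5 were called higher and 0 lower, beside 7.72% and 9.42% of 37394. Both sets called lower, SRSF1 226419_s_at and SRSF11 236948_x_at, thus carry such a suffix, as do all 3 SRSF1 sets called higher. Signal from near-identical copies of SR genes cannot be separated on these sets.

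Array profiles most like those of the 2 extreme SRSF1 probe sets were sought among 14271 named probe sets with a mean level of at least 7, as the smallest Euclidean distance between profiles centred on their own mean over the 8 arrays. For 208863_s_at, the largest rise, these were CHERP (distance 0.24, change 1.34), CDC20 (0.24, 1.39) and SELENOW (0.26, 1.29). For 226419_s_at, the only SR factor probe set called lower at such a level, they were LAMP1 (0.09, -0.36), CTBP2 (0.11, -0.37) and ITGB1 (0.12, -0.39). Profiles centred in this way keep the difference between the groups, so the nearest genes were bound to have changes of like size.

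Among SR genes outside the set, TRA2A also had probe sets called in both directions. TRA2A is the paralogue of TRA2B. Its probe sets and those of SRSF8 were singled out after their values were seen, and are given as a description. Its probe set 204658_at read 9.26, 9.37, 9.14 and 9.16 in sensitive and 9.97, 10.12, 10.11 and 9.80 in resistant cells and was called higher, with a change of 0.76 ± 0.11. Probe set 213593_s_at read 8.02, 7.98, 8.24 and 7.82 in sensitive and 7.12, 7.08, 7.15 and 6.84 in resistant cells, and was called lower, with a change of -0.97 ± 0.13. Probe sets 229574_at (-0.92 ± 0.15) and 213575_at (-0.69 ± 0.18) were called lower as well, and on all 4 the groups did not overlap. The fifth, 227939_s_at, changed by -1.09 ± 0.48 and was not called. SRSF8 was called higher on all 4 of its probe sets, with changes of 0.61 to 0.97.

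**Figure D4:**
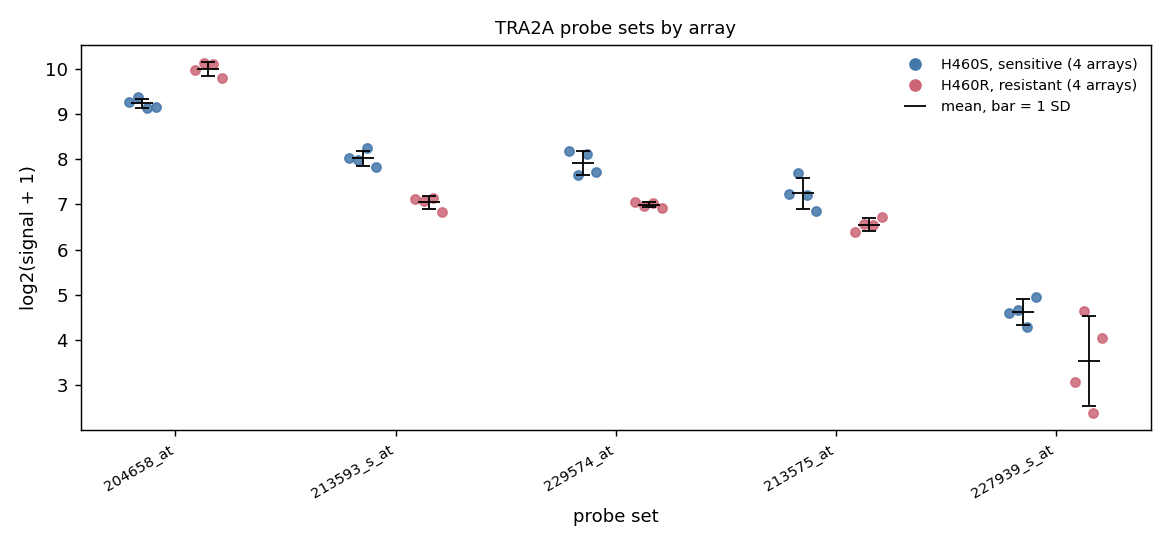
Level of each TRA2A probe set on each array, as log2(signal + 1) (y axis), for 4 sensitive and 4 resistant arrays, with the mean and 1 SD as black bars. 204658_at is higher on all resistant arrays and the next 3 probe sets are lower on all of them.

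For the rest of the splicing pathway each gene was represented by its brightest probe set, and calls were adjusted by limma and Benjamini-Hochberg over 19775 genes, of which 30.3% were called, 14.7% higher and 15.6% lower in resistant cells. On that basis 8 of the 9 SR factors were called higher and 0 lower, with a median change of 0.67, where the median over all genes was -0.03. SRSF4 was called here (0.32 ± 0.09), although the same probe set missed the threshold among all probe sets, and SRSF11 was not called. Of 12 other SR and SR-related genes 5 rose and 2 fell (median change 0.21). They included SRSF8 (0.83 ± 0.07, adjusted p = 0.000224), TRA2A (0.76 ± 0.10, adjusted p = 0.0012) and the dim SRSF12 (-1.66 ± 0.38, adjusted p = 0.0149). With the mean of all its probe sets TRA2A turned to -0.58. The change of SRSF12 was -0.80 with a pseudocount of 16, and it was not called with the mean of all its probe sets (-0.97) or with the replicate block.

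Of 13 regulators of SR proteins (kinases, phosphatases and the importin TNPO3), 1 rose and 4 fell, with a median change of -0.44, beside 14.7% and 15.6% of all genes. The counts depended on the probe sets used: on sets without a cross-hybridisation suffix 0 rose and 0 fell, and with the mean of all probe sets 1 rose and 1 fell. Genes with only suffixed probe sets, such as CLK1 and CLK2, were not measured in the first of these fits. The fall of CLK1 was therefore not tested there. The shares of all genes called in these fits are not given here, so their counts have no background. CLK1, a nuclear kinase of the RS domain, fell from 9.62 ± 0.06 (SD, n = 4) to 8.06 ± 0.13, by 1.56 ± 0.09 (limma adjusted p = 2.8e-05). CLK3 changed by -1.32 ± 0.06 (limma adjusted p = 1.39e-05), but its other probe set, the one without a suffix for cross-hybridisation, changed by 0.76 and was not called. SRPK1, which phosphorylates SR proteins in the cytoplasm, rose by 0.66 ± 0.09 (limma adjusted p = 0.00162).

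Core spliceosome genes were called higher in 23 of 32 cases and lower in 1, with a median change of 0.44. Of all genes 14.7% were called higher and 15.6% lower, and this background holds for the next lists too. SF3B4 (0.99 ± 0.06), U2AF2 (0.85 ± 0.10) and SF3B5 (0.77 ± 0.09), which act at the branch point and 3′ splice site, changed most. U2AF2 was not called with the mean of its probe sets (0.72) or on sets without a cross-hybridisation suffix (0.98). On those sets 10 genes of the list rose and 0 fell, but fewer genes were measured there, SF3B4 and SF3B5 not among them. The shares of all genes called on those sets are not given here, so these counts have no background. Of 24 hnRNP and PTB genes, whose products often counter SR proteins, 10 rose and 3 fell (median 0.15), led by HNRNPAB (0.88 ± 0.08), SYNCRIP (0.73 ± 0.09) and HNRNPA1 (-0.72 ± 0.10). The share that fell was close to that of all genes. HNRNPA1 has near-identical copies in the genome and turned to 0.24 on sets without such a suffix, but none of its probe sets was called higher. Of 9 measured genes of nonsense-mediated decay and the exon junction complex, 4 rose and 2 fell (median 0.19), among them UPF1 (0.72 ± 0.12), SMG8 (0.57 ± 0.06) and SMG5 (-0.51 ± 0.14). SMG5 was not called after median centring (-0.43), nor without H460S array 1, H460R array 1 or H460R array 4.

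**Figure D5:**
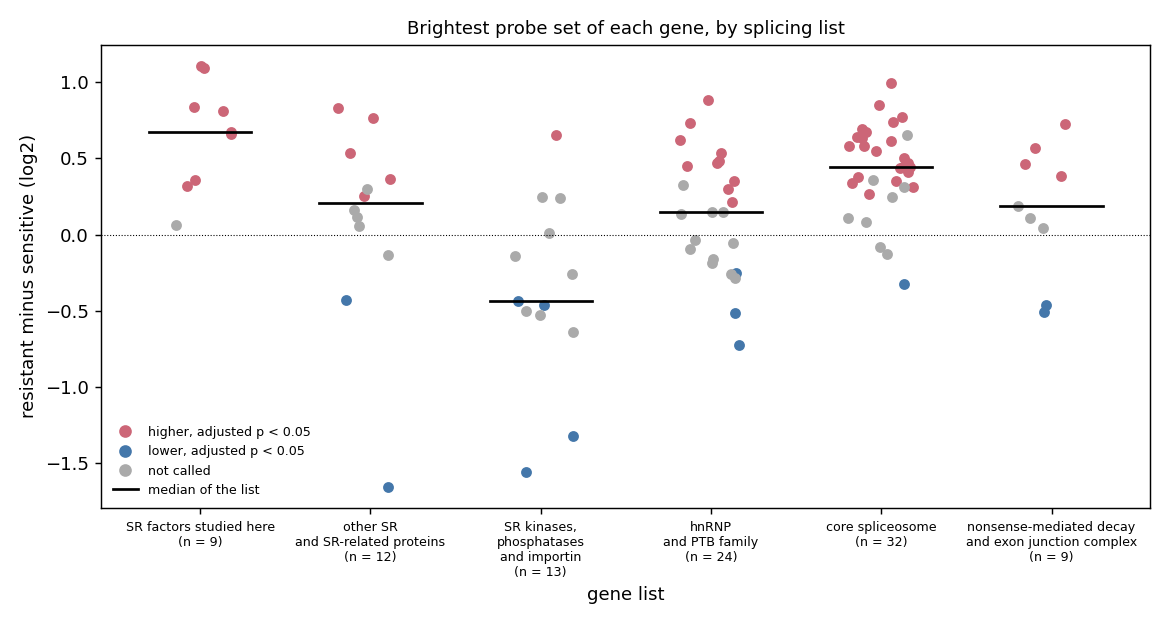
Change of each gene's brightest probe set (resistant minus sensitive, log2, y axis) by list (x axis), coloured by call, with the median of each list as a black line. The medians are 0.67 for the SR factors, 0.21, -0.44, 0.15, 0.44 and 0.19 for the other lists from left to right.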

How the data were processed

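For each of 8 arrays the authors deposited 54675 intensity values, 62 of which belong to controls. RMA, without a version, is the method in the submitters' processing notes. The deposited intensity values are linear, however, and the mean after trimming 2% at each end is 200 on every array, as for MAS 5-type scaling, so the step that made them is not settled. A change in total RNA per cell cannot be seen. Arrays have no read depth, and their number limits the precision.

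Values were taken as log2(signal + 1), with no further normalization, and fold changes on this scale understate changes of dim genes: 48.1% of values were below a log2 level of 5. The analysis design had allowed for either scale. Names came from the platform annotation: 41091 probe sets had 1 symbol, 1801 several and 11721 none here. By gene identifier 41043 probe sets matched the RefSeq gene table of GRCh38.p14, used for names only. Groups were compared with limma 3.58.1 in R 4.3.3 (lmFit, eBayes, Benjamini-Hochberg), array measures with exact permutation tests over 70 assignments. The fit was tested on simulated data. Figures were drawn with matplotlib 3.10.9.

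The genes, lists and tests were chosen with earlier results of these data known. Named were all probe sets of the genes, up to 3 called genes per list with the largest change, and 3 genes per extreme profile. All probe sets of TRA2A and SRSF8 were added after their values were seen. Alternatives were another pseudocount, quantile normalization, median centring, a filter on dim probe sets, a trended robust prior, array weights, a replicate block, a GAPDH covariate, other probe set choices, a 2-fold limit and leaving out each array. Protein features were not analysed here.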

Additional observations from a re-analysis of the deposited data

Results flagged for a closer look

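In 82 groups of 4 arrays, 2 for each of the 41 SR factor probe sets, 6 had an array set apart from the other 3 by Dixon's criterion, where chance alone gives about 4.1. The resistant array 4 was lowest for SRSF11 200686_s_at, at 9.70 against 10.30 for the next (log2 level), and highest for SRSF1 201742_x_at, at 12.56 against 12.34 (gaps of 0.889 and 0.837 of the range). The resistant array 3 was lowest for SRSF5 203380_x_at, at 10.91 against 10.96. The sensitive array 1 was lowest for SRSF1 211784_s_at, at 10.86 against 11.12, and for SRSF10 225348_at, at 6.73 against 6.87. The sensitive array 2 was lowest for SRSF4 239512_at, at 7.19 against 7.44.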

How the results depend on the processing

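None of the called changes of the 41 SR factor probe sets changed sign under any alternative run. Those called higher numbered 19 to 20 when 1 array was left out, against 21. Those called lower numbered 1 to 2 when 1 array was left out, against 2, and 1 after median centring, with dim probe sets left out (which removes SRSF11 236948_x_at) or, chosen after seeing the data, without H460S array 1 and H460R array 4. With probe sets of at least 2-fold change 6 were higher and 1 lower, and among the 19 without a cross-hybridisation suffix 5 and 0. Genes with opposite calls numbered 29 to 72 when 1 array was left out, against 73, 166 with dim probe sets left out, and 145 with a trended robust prior.

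Replicate numbers did not pair the arrays: deviations from group means of same-numbered arrays correlated at -0.0941 to 0.098. With the numbers as a replicate block 5062 probe sets were called (2190 higher, 2872 lower) against 10637, of the SR factor sets 16 higher and 0 lower, and 10 genes had opposite calls. In that fit 0 genes fell among other SR genes, the core spliceosome and nonsense-mediated decay, and SRSF12 and SMG5 were not called. Its lost probe set calls were SRSF1 226419_s_at, SRSF5 203380_x_at and 212266_s_at, SRSF7 213649_at, SRSF10 206095_s_at and 225348_at, and SRSF11 236948_x_at.

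In the lists, falls in nonsense-mediated decay numbered 0 to 1 when 1 array was left out, 0 after median centring, and 1 after quantile normalization, with the mean of all probe sets or without both arrays named above. Median centring left 1 fall among other SR genes and 0 in the core spliceosome, and gave 2 rises in the list of kinases, phosphatases and importin (the regulator list), as did the GAPDH covariate. With dim probe sets left out 1 other SR gene fell, 3 genes of the regulator list rose and 5 hnRNP genes fell, and the trended prior gave the same 3 and 5. On sets without a suffix 0 genes of the regulator list rose and 0 fell, 5 hnRNP genes rose, and 10 core spliceosome genes rose and 0 fell. These counts cover fewer genes, since those with only suffixed probe sets were not measured in that fit. The shares of all genes called there are not given here. Among the genes left out were CLK1, HNRNPAB, SF3B4 and SF3B5. In the same fit CLK3 turned to 0.76, without a call, and HNRNPA1 to 0.24. With the mean of all probe sets 3 other SR genes rose, 1 gene of the regulator list fell, 6 hnRNP genes rose and 1 fell, and TRA2A turned to -0.58. The causes were not tested. After median centring the median change of all probe sets moved from -0.04 to 0.03, and the share of calls that were higher was 55.3% against 46.9%.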
